A study of Homo sapiens with 6 samples.

Results

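The expression of 39 genes of the DNA damage response and of DNA repair was compared between C4-2B and RC4-2B cells. The genes were taken from the 58735 genes of the read count table by their symbols. All 39 symbols were found, each once, on 17 chromosomes, and 6 of them (RPA1, SLFN11, RAD51D, BRCA1, RAD51C and BRIP1) lie on chromosome 17. C4-2B is an established human cell line of castration resistant prostate cancer. RC4-2B is a single cabazitaxel-resistant subclone of it, produced by repeated 72 h treatments with cabazitaxel (CBZ), a taxane that blocks microtubule depolymerization, at concentrations raised from 0.1 nM to 20 nM over 4 months. Both lines were propagated with 10% fetal bovine serum per the labels, no drug is named for the cells at harvest, and RNA of each line was sequenced as 3 biological replicates. For the sequenced cultures the study's methods name charcoal-stripped serum (CSS) as well as fetal bovine serum, and which of them the cells were grown in could not be settled. The labels do not say whether the 3 replicates of a line came from separate cultures, so p-values measure the spread between these libraries, which may be technical. Since RC4-2B is 1 subclone, the resistance and other properties of that subclone cannot be told apart.

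DNA double-strand breaks are sensed by the MRE11-RAD50-NBN complex and the kinase ATM, while stalled replication forks expose single-stranded DNA that is coated by RPA and activates the kinase ATR. Breaks are then rejoined either by homologous recombination, in which BRCA1, PALB2 and BRCA2 act in sequence, or by non-homologous end joining, which begins with the Ku heterodimer and DNA-PKcs. The Fanconi anemia pathway removes crosslinks between DNA strands, and mismatch, excision and single-strand break repair act on smaller lesions. Camptothecin traps topoisomerase 1 on DNA and cytarabine stops the replicating strand, so the lesions of both drugs, which the study applied to taxane-resistant cells, are handled by these genes.

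Total gene counts were 15707134 to 18052517 per library, which puts a floor of 3 counts at 0.170 to 0.188 CPM, a limit that covers counting error alone. CPM is a gene's count scaled to the total of its library after TMM normalization. The RC4-2B label was checked on ABCB1, the drug efflux pump gene, which had 0, 1 and 0 counts in C4-2B replicates 1 to 3 and 10742, 15948 and 13179 counts in RC4-2B replicates 1 to 3. The epithelial markers KRT8, KRT18, EPCAM and CDH1 and the prostate marker FOLH1 were expressed in all 6 libraries, whereas TMPRSS2 was lower in RC4-2B (log2 fold change -1.08, edgeR adjusted p = 0.019). The leukocyte markers PTPRC, CD3E and CD68 summed to 0 to 7 counts per library, and COL1A2, DCN, LUM and PECAM1 were at 0. RC4-2B replicate 2 stood apart. The standard deviation of its log2 difference from RC4-2B replicates 1 and 3 across well expressed genes was 0.63 and 0.55, against 0.24 between replicates 1 and 3 and 0.17 to 0.22 between C4-2B libraries. For single genes, the value without that library, and the value after a correction for the GC content of transcripts described further on, are therefore given where either turned the direction or moved the log2 fold change by over 1.5 times.

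The repair genes covered a wide range of levels. On the deposited FPKM scale, which divides counts by gene length and library total, 18 genes averaged at least 10 over the 6 libraries, 19 lay between 1 and 10, and RAD50 and SLFN11 lay under 1. XRCC6, which encodes the Ku70 subunit of the Ku heterodimer, was the highest with 264 ± 15.5 FPKM (SD, n = 3) in C4-2B and 282 ± 48.5 FPKM (SD, n = 3) in RC4-2B. PARP1, the main poly(ADP-ribose) polymerase that marks broken DNA, followed with 103 ± 2.47 and 117 ± 1.97 FPKM. XRCC5, which encodes the partner subunit Ku80, had 81.3 ± 0.588 and 105 ± 29.7 FPKM, so its order relative to PARP1 was clear in C4-2B but lay within the spread between libraries in RC4-2B. In C4-2B the FPKM of XRCC6 was 3.25 times that of XRCC5, although the proteins work as a heterodimer. RPA1, the large subunit of the single-strand binding protein RPA, followed with 54.3 ± 1.52 and 76.7 ± 12.2 FPKM, and PRKDC, which encodes DNA-PKcs, with 35.3 ± 2.63 and 50.1 ± 8.73 FPKM. At the low end, the damage kinase ATM had 1.57 ± 0.21 and 1.83 ± 0.215 FPKM. RAD50, a subunit of the break-sensing complex, had 0.692 ± 0.0513 and 0.689 ± 0.105 FPKM, below its partners MRE11 (5.62 ± 0.367 and 6.39 ± 0.659 FPKM) and NBN (10.9 ± 0.372 and 12.5 ± 3.19 FPKM) in every library.

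**Figure D1:**
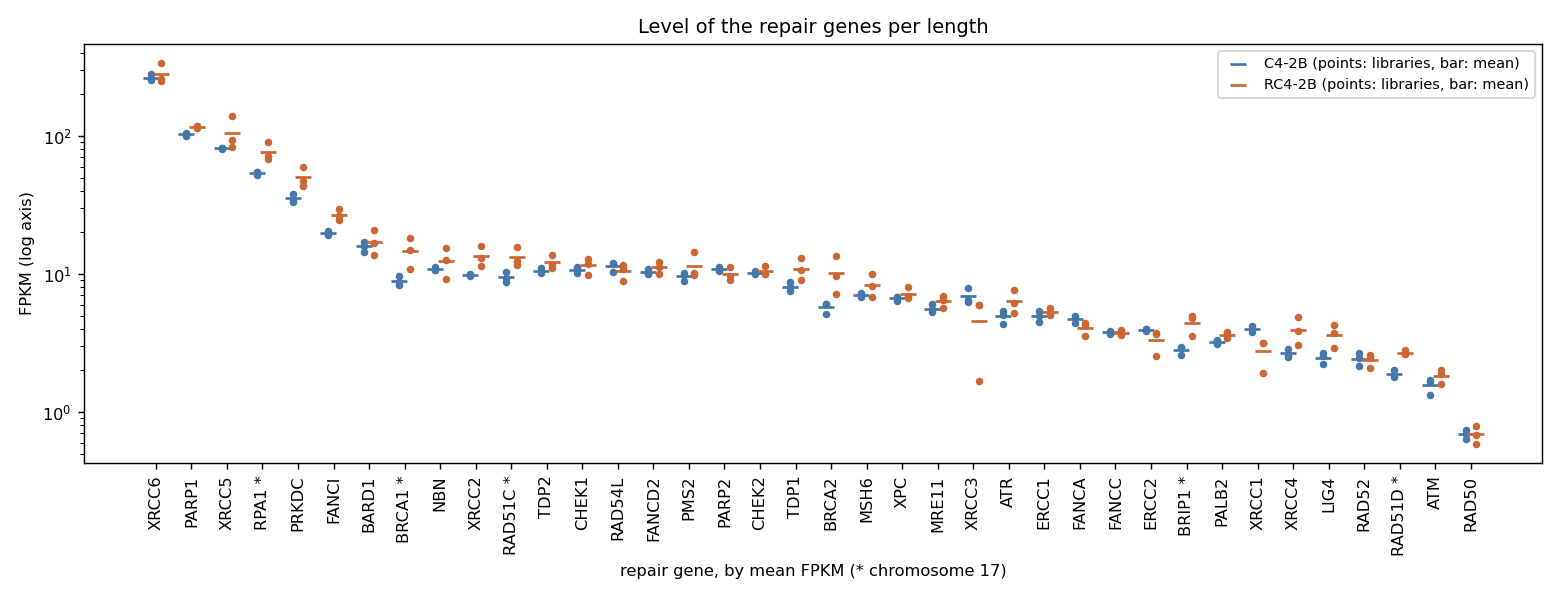
FPKM of the 38 repair genes that passed the filter on low counts, on a log axis, ordered by their mean over 6 libraries, with points for libraries, bars for the mean of each cell line, and asterisks for chromosome 17. XRCC6 leads with 264 FPKM in C4-2B, and RAD50 is lowest at 0.692 FPKM in C4-2B.

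With all 6 libraries, no repair gene passed the test between the cell lines. SLFN11 had too few counts to be tested. In RC4-2B, 0 of the other 38 genes lay above C4-2B and 0 below when the threshold of 0.05 was applied to Benjamini-Hochberg adjusted p-values of the quasi-likelihood test of edgeR, where 1.08% of all 15054 tested genes were higher and 0.903% were lower. The lowest adjusted p-value was 0.0741, for BRIP1. Before adjustment, 12 genes had a p-value under 0.05 in the higher direction and 1 in the lower, against 13.1% and 9.80% of the 11259 well expressed genes, a class that holds all 38. The scaled CPM of the cell lines did not overlap, with RC4-2B higher, for 16 of the 38 genes, and with RC4-2B lower for 4, where the background was 18.7% and 18.7% of well expressed genes. The log2 fold change was above 0 for 29 of the 38 genes, against 50.7% of all tested genes, and its median was 0.16, against 0.0063 over all tested genes. The range of the log2 fold changes ran from -0.62 for XRCC3 to 0.78 for BRCA2. In bulk RNA, a change in the share of cells that express a gene and a change in RNA per cell cannot be told apart.

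The number of calls depended on how RC4-2B replicate 2 was treated. Without that library, 9 repair genes were higher (BRCA1, BRCA2, BRIP1, FANCI, PRKDC, RAD51C, RAD51D, RPA1 and XRCC2), where 6.50% of all genes were called higher and 6.02% lower. With all libraries and a correction for GC content, 5 were higher (BRCA1, BRCA2, BRIP1, RAD51D and RPA1), against 4.39% of all genes higher and 3.27% lower. That correction started from each gene's log2 CPM minus its mean over the libraries. In each library, the smoothed trend of this deviation against the GC content of the longest transcript was allowed for within the fit. It also removes any GC trend between the cell lines. Both steps together left 8 genes higher (BRCA1, BRCA2, BRIP1, FANCI, PRKDC, RAD51C, RAD51D and RPA1), against 6.81% higher and 6.65% lower. DESeq2, the tool named in the study's methods, called 6 higher with all libraries (BRCA1, BRCA2, BRIP1, FANCI, RAD51D and RPA1), against 3.28% of all genes higher and 2.64% lower. Without a filter on low counts, 5 were higher (BRCA1, BRCA2, BRIP1, PRKDC and RPA1), against 2.07% of all genes higher and 2.22% lower, and with the GC correction and the replicate number as a block, 4 were (BRCA1, BRCA2, RAD51D and RPA1), against 4.29% and 3.75%. Without RC4-2B replicate 1, 3 repair genes (BRCA1, BRCA2 and BRIP1) were higher, against 1.63% of all genes higher and 1.44% lower. Leaving out RC4-2B replicate 3 left 0, where 29 of all 15504 tested genes were called higher and 49 lower. Leaving out C4-2B replicate 1, 2 or 3 also left 0. There, 13 of 15519, 19 of 15372 and 20 of 15394 tested genes were called higher, and 31, 38 and 36 lower. None of these settings called a repair gene lower. After the GC correction the 38 genes had a median log2 fold change of 0.058, and the 33 genes outside chromosome 17 had a median of 0.0039 there.

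**Figure D2:**
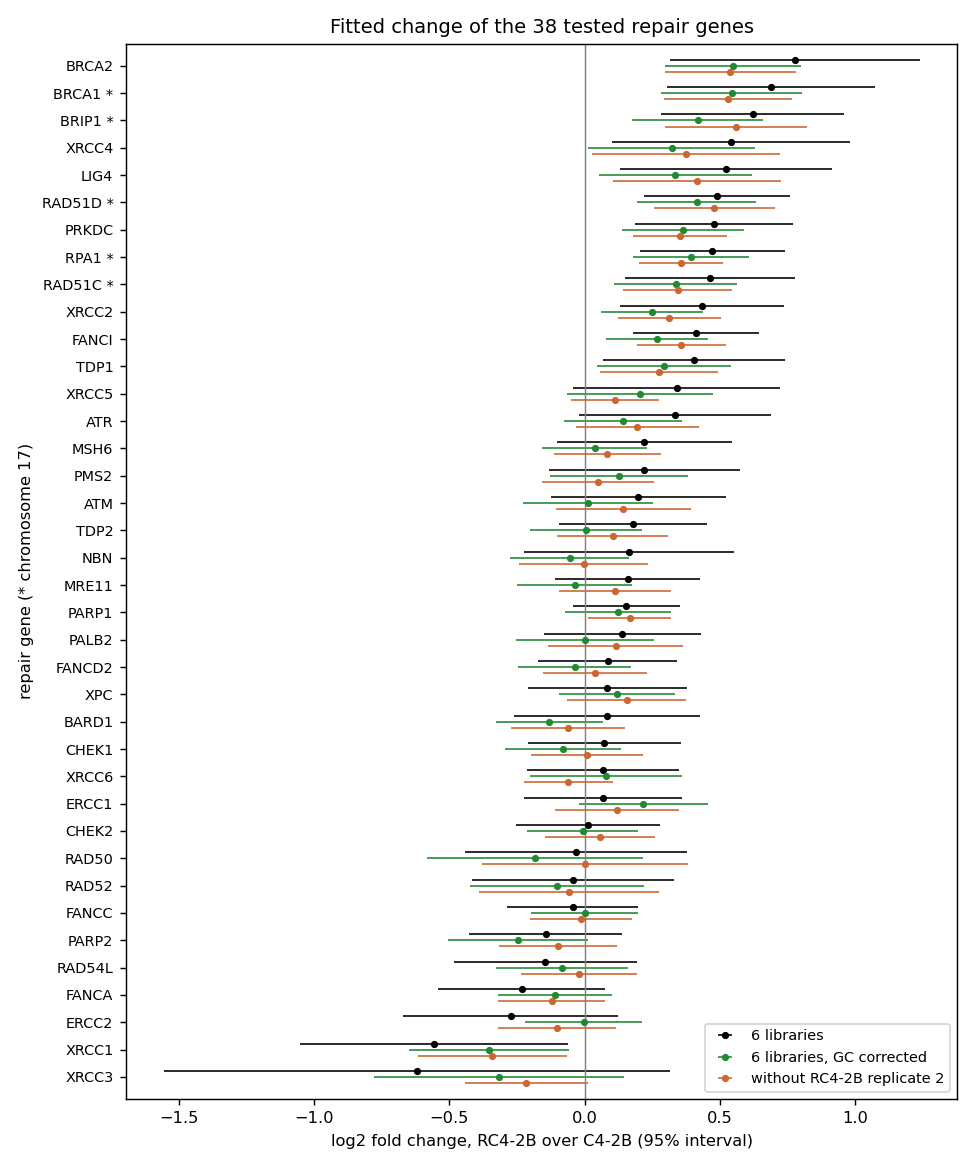
Log2 fold change of RC4-2B over C4-2B with its 95% interval for the 38 tested repair genes, from edgeR with 6 libraries (black), with the GC correction (green) and without RC4-2B replicate 2 (orange), with asterisks for chromosome 17. With 6 libraries the largest values belong to BRCA2 (0.78) and BRCA1 (0.69). The genes at the bottom, XRCC3 and XRCC1, have narrower intervals without replicate 2. Their standard errors go from 0.41 to 0.11 for XRCC3 and from 0.22 to 0.13 for XRCC1.

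The promoters of the 5 genes called after the GC correction are shown because these genes were called higher under more of the alternatives than any other repair gene, and 4 of them share chromosome 17. Each sequence is the RefSeq GRCh38.p14 stretch from 250 bases before to 50 bases after the annotated start, 5′ to 3′, with capitals for a CCAAT box (CCAAT, or ATTGG on the other strand) and for a CHR-type element (TTTGAA, or TTCAAA on the other strand), the letters found in many cell cycle promoters.
BRCA1 (chr17:43125315-43125614, minus strand): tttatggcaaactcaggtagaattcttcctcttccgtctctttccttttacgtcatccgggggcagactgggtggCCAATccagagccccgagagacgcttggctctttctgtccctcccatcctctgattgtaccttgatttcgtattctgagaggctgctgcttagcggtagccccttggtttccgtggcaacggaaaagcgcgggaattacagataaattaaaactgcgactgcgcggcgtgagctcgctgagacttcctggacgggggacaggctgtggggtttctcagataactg
BRIP1 (chr17:61863479-61863778, minus strand): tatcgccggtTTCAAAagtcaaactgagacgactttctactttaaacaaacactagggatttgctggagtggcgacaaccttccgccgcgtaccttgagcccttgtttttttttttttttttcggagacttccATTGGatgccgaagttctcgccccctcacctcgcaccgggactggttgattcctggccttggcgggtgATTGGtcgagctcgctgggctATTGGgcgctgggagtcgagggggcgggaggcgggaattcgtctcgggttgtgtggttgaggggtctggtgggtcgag
RAD51D (chr17:35119811-35120110, minus strand): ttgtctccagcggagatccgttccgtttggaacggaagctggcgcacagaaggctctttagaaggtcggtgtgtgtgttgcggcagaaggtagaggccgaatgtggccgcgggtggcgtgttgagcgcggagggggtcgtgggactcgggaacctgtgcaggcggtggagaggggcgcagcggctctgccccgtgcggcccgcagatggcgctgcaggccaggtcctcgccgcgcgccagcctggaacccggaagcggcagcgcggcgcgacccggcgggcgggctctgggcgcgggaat
RPA1 (chr17:1829755-1830054, plus strand): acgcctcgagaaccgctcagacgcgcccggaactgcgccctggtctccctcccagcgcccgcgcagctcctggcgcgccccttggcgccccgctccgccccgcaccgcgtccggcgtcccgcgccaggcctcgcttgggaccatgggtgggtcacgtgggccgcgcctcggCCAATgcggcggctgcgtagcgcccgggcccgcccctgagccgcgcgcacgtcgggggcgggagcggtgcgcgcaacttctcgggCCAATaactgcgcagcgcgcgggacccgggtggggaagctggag
BRCA2 (chr13:32315258-32315557, plus strand): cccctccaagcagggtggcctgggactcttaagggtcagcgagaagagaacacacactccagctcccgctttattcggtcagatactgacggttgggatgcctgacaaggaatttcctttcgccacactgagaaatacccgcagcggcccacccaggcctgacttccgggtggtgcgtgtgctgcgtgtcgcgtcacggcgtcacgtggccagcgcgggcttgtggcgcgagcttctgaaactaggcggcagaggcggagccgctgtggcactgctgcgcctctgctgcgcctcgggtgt
The window of BRIP1 held 3 CCAAT boxes and 1 CHR-type element, that of RPA1 held 2 CCAAT boxes and that of BRCA1 held 1, whereas neither motif was in the windows of RAD51D and BRCA2. Over all 15108 RefSeq promoters of this length, 36.6% held a CCAAT box on either strand, against 54.3% (19 of 35) of the repair genes with a promoter entry. The CHR-type element was in 11.6% of all promoters and 17.1% (6 of 35) of the repair genes. An E2F-type site (TTTCCCGC or TTTGGCGC, either strand), which does not overlap the other motifs in its letters, was in 3.16% of all promoters and in 17.1% of those of the repair genes, namely FANCC, FANCD2, MSH6, XPC, XRCC2 and XRCC6. Of these 6 genes, XRCC2 was among those higher in RC4-2B without replicate 2. The matches describe letters, not binding.

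Among the 10 tested genes of homologous recombination, BRCA1, BRCA2, RAD51C, RAD51D and XRCC2 had an unadjusted edgeR p-value under 0.05 with 6 libraries, and none had one in the lower direction. The shares of well expressed genes were 13.1% higher and 9.80% lower. BRCA1, RAD51C and RAD51D lie on chromosome 17, where 231 of 704 well expressed genes had such a p-value in the higher direction. BRCA1 (chr17:43044295-43170245, minus strand, GRCh38), the ubiquitin ligase subunit that channels breaks into recombination, had 86.0, 98.9 and 88.9 CPM in C4-2B and 112.5, 177.6 and 151.0 CPM in RC4-2B. Every RC4-2B library lay above every C4-2B library, with replicate 2 the highest. The log2 fold change was 0.69 (standard error 0.17, edgeR adjusted p = 0.0783), and without RC4-2B replicate 2 it was 0.53 (edgeR adjusted p = 0.00634). BRCA2 (chr13:32315474-32400266, plus strand), the carrier that loads the recombinase on single-stranded DNA, had 70.4, 83.4 and 83.1 CPM in C4-2B and 98.6, 176.6 and 130.7 CPM in RC4-2B. These groups did not overlap either. With 6 libraries the BRCA2 difference was the largest of the 38 genes, at a log2 fold change of 0.78 (standard error 0.20, edgeR adjusted p = 0.0909), and 0.55 after the GC correction (edgeR adjusted p = 0.0179). Without RC4-2B replicate 2 it was 0.54 (edgeR adjusted p = 0.00666), below the 0.56 of BRIP1.

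RAD51D and RAD51C, paralogs of the recombinase that stabilise its filament on DNA, also had values that did not overlap between the lines. RAD51D (chr17:35092208-35121522, minus strand) had 25.4, 23.5 and 22.5 CPM in C4-2B and 33.5, 33.8 and 32.8 CPM in RC4-2B, and here RC4-2B replicate 2 was like the other RC4-2B libraries. Its log2 fold change of 0.49 (standard error 0.12, edgeR adjusted p = 0.0747) hardly moved without replicate 2, at 0.48. RAD51C (chr17:58692573-58735611, plus strand) had 70.3, 63.4 and 58.6 CPM in C4-2B and 79.3, 102.5 and 83.5 CPM in RC4-2B, which gave a log2 fold change of 0.46 (standard error 0.14, edgeR adjusted p = 0.123). It passed the threshold without replicate 2 (0.34, edgeR adjusted p = 0.0268). XRCC2, a further paralog, had 52.6 to 54.0 CPM in C4-2B and 62.2, 83.4 and 69.7 CPM in RC4-2B, with a log2 fold change of 0.43 that was 0.25 after the GC correction. XRCC3, the paralog that pairs with RAD51C, went the other way, with 66.6, 53.2 and 54.0 CPM in C4-2B and 50.3, 13.5 and 49.5 CPM in RC4-2B. The groups did not overlap, but most of the difference lay in replicate 2. The log2 fold change was -0.62 (standard error 0.41, edgeR adjusted p = 0.380), -0.22 without that library and -0.32 after the GC correction. XRCC3 shares its locus with KLC1 on the opposite strand, which had 3782 counts over the 6 libraries against 4887 for XRCC3, so its value is uncertain. PALB2, the bridge between BRCA1 and BRCA2, BARD1, the partner of BRCA1, and RAD52 and RAD54L, which act in strand annealing and strand exchange, had log2 fold changes of 0.14, 0.08, -0.04 and -0.15, with intervals that spanned 0. For BARD1 the 95% interval was -0.26 to 0.43, and its direction turned, to -0.062 without RC4-2B replicate 2 and -0.13 after the GC correction. The GC correction gave 0.0017 for PALB2, -0.10 for RAD52 and -0.085 for RAD54L, and RAD54L was at -0.022 without replicate 2. RAD54L overlaps LRRC41 on the opposite strand, with 12702 counts against 4004 for RAD54L, so its value is uncertain. RAD52 turned to 0.018 without C4-2B replicate 3 and 0.039 without RC4-2B replicate 3.

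**Figure D3:**
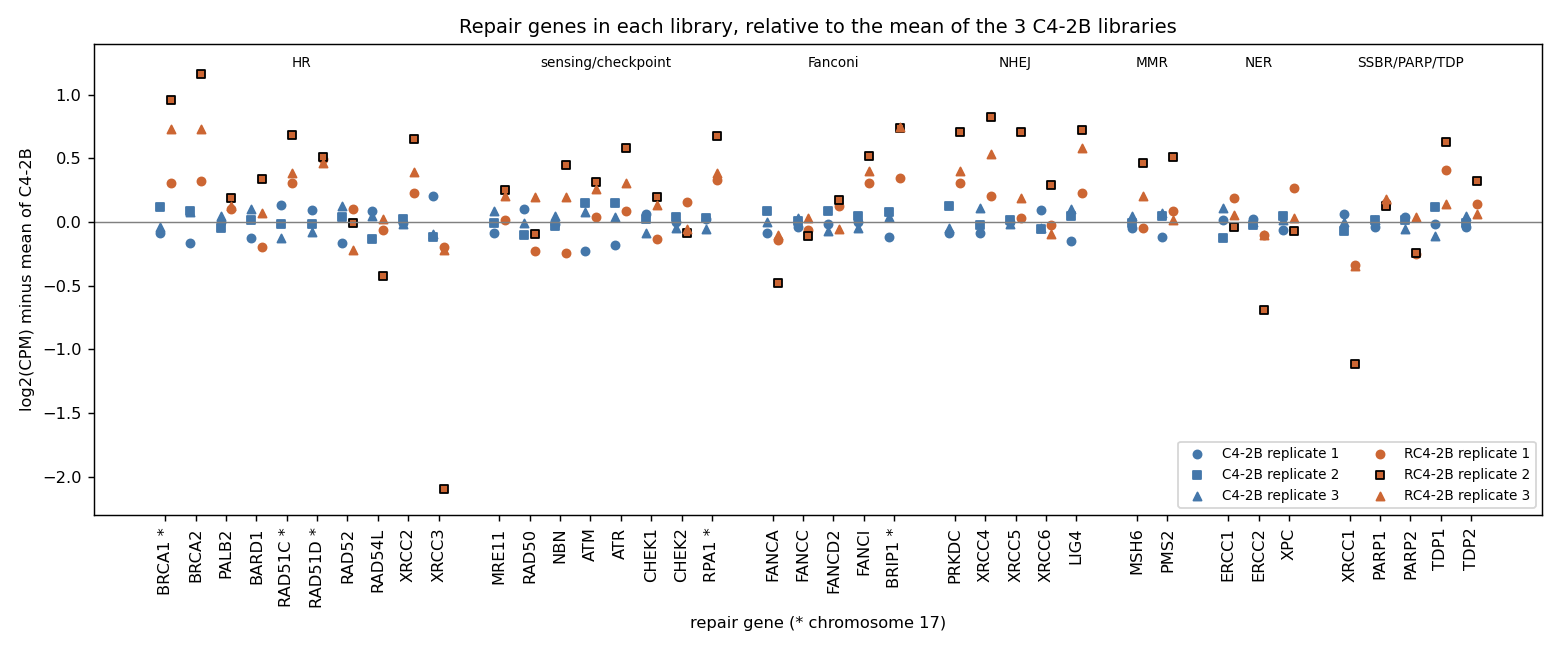
Log2 CPM of each library minus the mean of the 3 C4-2B libraries for the 38 tested repair genes, grouped by pathway, with circles, squares and triangles for replicates 1 to 3, and RC4-2B replicate 2 outlined in black. For BRCA1 and BRCA2 all RC4-2B points lie above the C4-2B points, and for XRCC3 the low mean of RC4-2B comes mainly from replicate 2 at 13.5 CPM.

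The 5 Fanconi anemia genes lay on both sides of 0. BRIP1 (chr17:61681266-61863521, minus strand), the helicase that binds BRCA1, had 23.1, 26.6 and 25.8 CPM in C4-2B and 32.0, 42.1 and 42.1 CPM in RC4-2B, so the lines did not overlap and RC4-2B replicates 2 and 3 were alike. The BRIP1 difference was a log2 fold change of 0.62 (standard error 0.15, edgeR adjusted p = 0.0741), and 0.56 without replicate 2 (edgeR adjusted p = 0.00824). FANCI (chr15:89243949-89317261, plus strand), which forms the clamp around DNA with FANCD2, had 172, 177 and 166 CPM in C4-2B and 213, 246 and 227 CPM in RC4-2B. No RC4-2B value overlapped, and the log2 fold change was 0.41 (standard error 0.10, edgeR adjusted p = 0.0806), or 0.27 after the GC correction. FANCI overlaps POLG on the opposite strand, which had 9790 counts over the 6 libraries against 20507 for FANCI, and strand use in counting is not given in the sources used here. FANCD2, its partner in the clamp, had 92.3 to 103 CPM in C4-2B and 93.2 to 109 CPM in RC4-2B, values that overlapped, with a log2 fold change of 0.09 (95% interval -0.17 to 0.34) that was 0.039 without replicate 2 and turned to -0.037 after the GC correction. FANCA, a subunit of the core complex that modifies the clamp, had 48.3, 54.5 and 51.4 CPM in C4-2B and 46.5, 36.8 and 47.9 CPM in RC4-2B, which gave a log2 fold change of -0.23 (standard error 0.14, edgeR adjusted p = 0.327), -0.12 without replicate 2 and -0.11 after the GC correction. ZNF276 on the opposite strand overlaps FANCA, with 1934 counts against 4878 for FANCA. FANCC, of the same core complex as FANCA, had a log2 fold change of -0.04 with a 95% interval of -0.29 to 0.20, which was -0.013 without replicate 2 and -0.00028 after the GC correction.

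Of the 8 genes of break sensing and checkpoint signalling, 1 (RPA1) had an unadjusted edgeR p-value under 0.05, against 13.1% of well expressed genes in the higher direction. RPA1 (chr17:1829702-1900082, plus strand) had 338, 340 and 320 CPM in C4-2B and 418, 532 and 434 CPM in RC4-2B, with no overlap. The log2 fold change was 0.47 (standard error 0.12, edgeR adjusted p = 0.0808), 0.39 after the GC correction (edgeR adjusted p = 0.0356) and 0.36 without replicate 2 (edgeR adjusted p = 0.00576). Its opposite-strand neighbour SMYD4, which overlaps it, had 4086 counts over the 6 libraries against 40683 for RPA1. ATR, the kinase that RPA-coated DNA activates, had 60.4, 75.9 and 70.4 CPM in C4-2B and 72.7, 103 and 85.0 CPM in RC4-2B, so the lines overlapped. The ATR log2 fold change of 0.33 (standard error 0.16, edgeR adjusted p = 0.251) was 0.19 without replicate 2 and 0.14 after the GC correction. ATM had 35.6, 46.3 and 43.9 CPM in C4-2B and 42.8, 51.7 and 49.8 CPM in RC4-2B, which also overlapped, with a log2 fold change of 0.20 (standard error 0.14, edgeR adjusted p = 0.413) that was 0.013 after the GC correction. NPAT on the opposite strand shares part of the ATM locus, with 3132 counts against 4624 for ATM.

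For the effector kinases no difference beyond the spread between libraries was detected. CHEK1, which ATR phosphorylates, had 82.2, 79.9 and 74.4 CPM in C4-2B and 72.0, 90.4 and 86.4 CPM in RC4-2B. Its log2 fold change was 0.07 (95% interval -0.21 to 0.36, edgeR adjusted p = 0.735), was 0.0068 without replicate 2 and turned to -0.080 after the GC correction. STT3A, which overlaps CHEK1 on the same strand, had 34522 counts against 8305 for CHEK1, so reads near the CHEK1 end could be assigned to either gene. CHEK2, the substrate of ATM, had 51.3, 52.8 and 49.6 CPM in C4-2B and 57.2, 48.3 and 49.3 CPM in RC4-2B, which gave a log2 fold change of 0.01 (95% interval -0.25 to 0.28, edgeR adjusted p = 0.957), or 0.057 without replicate 2 and -0.0078 after the GC correction. The values of both kinases overlapped between the lines. MRE11, RAD50 and NBN, the sensor complex, had log2 fold changes of 0.16, -0.03 and 0.16, none with an interval that left out 0. Without RC4-2B replicate 2, NBN turned to -0.0043 and RAD50 to 0.00099, and after the GC correction MRE11, RAD50 and NBN were at -0.037, -0.18 and -0.056.

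In non-homologous end joining, all 5 log2 fold changes were above 0 with 6 libraries, where 50.7% of all tested genes were. Without RC4-2B replicate 2, 4 of the 5 were, where 7729 of 15378 tested genes were. PRKDC, XRCC4 and LIG4 had unadjusted edgeR p-values under 0.05 with 6 libraries, against 13.1% of well expressed genes in the higher direction. PRKDC on chromosome 8, the kinase that Ku recruits to DNA ends, had 572, 662 and 589 CPM in C4-2B and 749, 989 and 801 CPM in RC4-2B, which did not overlap. Its log2 fold change was 0.48 (standard error 0.13, edgeR adjusted p = 0.0977), 0.35 without replicate 2 (edgeR adjusted p = 0.0111). LIG4, the ligase that seals the ends, had 10.9, 12.5 and 13.0 CPM in C4-2B and 14.2, 20.0 and 18.2 CPM in RC4-2B. Its scaffold XRCC4 had 7.46, 7.81 and 8.54 CPM in C4-2B and 9.13, 14.0 and 11.5 CPM in RC4-2B. Neither gene overlapped between the lines, and neither passed the threshold under any of the alternatives tried. After the GC correction, the log2 fold change of LIG4 went from 0.52 to 0.34 and that of XRCC4 from 0.54 to 0.32. XRCC4 was counted beside TMEM167A on the opposite strand, with 17563 counts against 1000, so its value is uncertain. Of the Ku genes, XRCC5 had 495, 502 and 489 CPM in C4-2B and 506, 811 and 565 CPM in RC4-2B, which gave a log2 fold change of 0.34 that was 0.11 without replicate 2 and 0.20 after the GC correction. XRCC6 had a log2 fold change of 0.07 (95% interval -0.22 to 0.35), which turned to -0.060 without replicate 2.

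PARP1 and the enzymes that remove trapped topoisomerases bear on the drugs of the study, since camptothecin traps topoisomerase 1 and TDP1 cleaves it from DNA. PARP1 had 804, 834 and 837 CPM in C4-2B and 917, 902 and 934 CPM in RC4-2B, with every RC4-2B library above every C4-2B library and with replicate 2 the lowest of them. The difference was small, at a log2 fold change of 0.15 (standard error 0.09, 95% interval -0.04 to 0.35, edgeR adjusted p = 0.318). PARP2, its relative, had 51.1, 50.3 and 47.9 CPM in C4-2B and 41.8, 42.1 and 51.2 CPM in RC4-2B, which overlapped, with a log2 fold change of -0.14 (standard error 0.12, edgeR adjusted p = 0.487) that was -0.25 after the GC correction. TDP1 had 55.6, 61.3 and 52.3 CPM in C4-2B and 74.6, 87.2 and 62.0 CPM in RC4-2B, narrowly without overlap, and a log2 fold change of 0.40 (standard error 0.15, edgeR adjusted p = 0.180). TDP2, which acts on topoisomerase 2 in the same way, had 35.3, 36.2 and 37.6 CPM in C4-2B and 40.2, 45.4 and 37.9 CPM in RC4-2B, which gave a log2 fold change of 0.18 (standard error 0.12, edgeR adjusted p = 0.384), 0.10 without replicate 2 and 0.0039 after the GC correction. Neither TDP gene passed the threshold under any of the alternatives tried.

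XRCC1, the scaffold of single-strand break repair that PARP1 activity recruits, had the smallest p-value among the lower genes. It had 16.2, 14.7 and 15.4 CPM in C4-2B and 12.2, 7.13 and 12.2 CPM in RC4-2B, without overlap and with replicate 2 the lowest. The log2 fold change was -0.56 (standard error 0.22, edgeR adjusted p = 0.198), and it was -0.34 without replicate 2 (edgeR adjusted p = 0.0969) and -0.35 after the GC correction (edgeR adjusted p = 0.132). SLFN11 (chr17:35350305-35373701, minus strand), a helicase-like protein that blocks stressed replication forks and is known to sensitise cells to topoisomerase 1 poisons, was not detectable in either line. It had 1 count in all, in RC4-2B replicate 2, which is under the floor of 3 counts in every library, so no fold change is given.

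Excision and mismatch repair genes showed no difference past the test. ERCC2, the helicase of transcription factor IIH, had 28.9, 28.0 and 28.6 CPM in C4-2B and 26.6, 17.7 and 26.6 CPM in RC4-2B, without overlap, and a log2 fold change of -0.27 (standard error 0.17, edgeR adjusted p = 0.363) that was -0.10 without replicate 2 and -0.0036 after the GC correction. ERCC1, part of the nuclease that cuts beside the lesion, had a log2 fold change of 0.07, which was 0.12 without replicate 2 and 0.22 after the GC correction. XPC, the damage sensor, had one of 0.08 that was 0.15 without replicate 2 and turned to -0.015 without RC4-2B replicate 1. XPC overlaps LSM3 on the opposite strand, with 11078 counts against 3777 for XPC. MSH6 and PMS2, which recognise and process mismatches, had log2 fold changes of 0.22 and 0.22, each with a 95% interval that spanned 0. Without RC4-2B replicate 2 these were 0.083 and 0.048, and after the GC correction 0.036 and 0.13. PMS2 shares sequence with its pseudogenes, of which PMS2P1 had 1667 counts and PMS2CL 1116 counts against 4706 for PMS2, and how reads that match several of them were counted is not given in the sources used here.

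RC4-2B replicate 2 departed from the other RC4-2B libraries along the GC content of the repair genes. Its log2 CPM minus the mean of replicates 1 and 3 ranged from -1.88 for XRCC3 to 0.64 for BRCA2. All 9 repair genes with a transcript GC content of at most 40% were higher in replicate 2, and 8 of the 9 with at least 50% were lower. Across the 38 genes, which share their libraries and are not independent replicates, the Spearman correlation of this departure with GC content was -0.69 and the Pearson correlation was -0.80, and across 11241 well expressed genes the Spearman correlation was -0.73. The standard error of the log2 fold change had a median of 0.14 over the 38 genes with all libraries and of 0.10 without replicate 2. The median log2 difference of the 38 genes from the C4-2B mean was 0.10, 0.32 and 0.16 in RC4-2B replicates 1, 2 and 3, so it was above 0 in each RC4-2B library and largest in replicate 2. Well expressed genes had medians of -0.0058, 0.039 and 0.011 in the same libraries. None of these medians carries the GC correction.

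**Figure D4:**
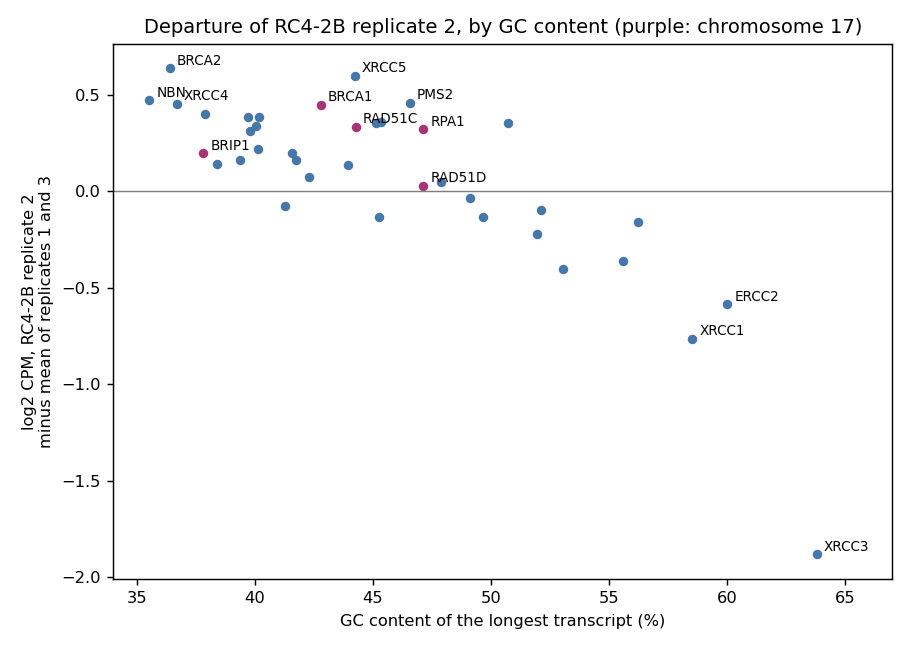
Log2 CPM of RC4-2B replicate 2 minus the mean of RC4-2B replicates 1 and 3 against the GC content of the longest transcript (%), with a point for each of the 38 tested repair genes and purple for chromosome 17. The points fall from left to right, from 0.64 for BRCA2 to -1.88 for XRCC3, with a Spearman correlation of -0.69.

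The chromosome 17 repair genes had positive log2 fold changes, as did most genes of that chromosome. All 5 tested members there had RC4-2B values that did not overlap those of C4-2B and were higher. The same held for 32.5% of all 944 tested chromosome 17 genes and for 273 of the 704 well expressed ones, the class of the 5 members. The 5 members had a median log2 fold change of 0.49 with 6 libraries and 0.41 after the GC correction. The 702 well expressed genes of chromosome 17 had a GC-corrected median of 0.26 (quartiles 0.085 and 0.43), with 83.2% above 0, whereas 10539 well expressed genes of other chromosomes had a median of -0.014, with 48.0% above 0. After the GC correction, 4 of the 5 members passed edgeR's threshold as higher, against 19.1% of the tested genes of the chromosome and 168 of its 702 well expressed genes. Without RC4-2B replicate 2 all 5 members were called higher, against 25.2% of the tested genes of the chromosome and 229 of its 704 well expressed genes. The part of the shift of the whole chromosome in the values of these 5 genes was not tested.

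The members were also set beside their neighbours, defined as the 10 well expressed genes on each side. All values in this comparison are GC-corrected log2 fold changes. BRIP1 had 0.42 beside a neighbour median of 0.35, and all 20 of its neighbours were above 0. RAD51C had 0.34 beside 0.28, with 9 of its 20 neighbours above it. RAD51D had 0.41 beside 0.27, and 7 neighbours were above it. RPA1 had 0.39 beside 0.29, with 2 neighbours above it. BRCA1, at 0.54 beside 0.29, had 4 neighbours above it and lay at the 86.5 percentile of the well expressed genes of the chromosome. BRCA1 overlaps NBR2 on the opposite strand and AC060780.1 on the same strand. These had 1119 and 1159 counts over the 6 libraries, against 12237 for BRCA1. All 5 neighbour medians were above 0, as was the median of the chromosome.

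Outside chromosome 17, 33 members were set beside their neighbours, and only BRCA2 and PRKDC lay above all of theirs. BRCA2 had a GC-corrected log2 fold change of 0.55 beside a neighbour median of -0.069, with 0 of its 20 neighbours above it, and lay at the 96.4 percentile of the well expressed genes of chromosome 13. PRKDC had 0.36 beside -0.036, again with 0 of 20 neighbours above it, at the 92.7 percentile of chromosome 8. FANCI had 0.27 beside 0.13, with 7 neighbours above it, at the 85.9 percentile of chromosome 15. BRCA2, PRKDC and FANCI were the 3 members outside chromosome 17 called higher with the GC correction and without RC4-2B replicate 2. High ranks are tied to that selection. At the other end, XRCC1 had -0.35 beside -0.045, with 19 of its 20 neighbours above it, at the 10.8 percentile of chromosome 19. RAD50, NBN and ATM each had 15 of 20 neighbours above them. These percentiles describe the genes and carry no test.

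**Figure D5:**
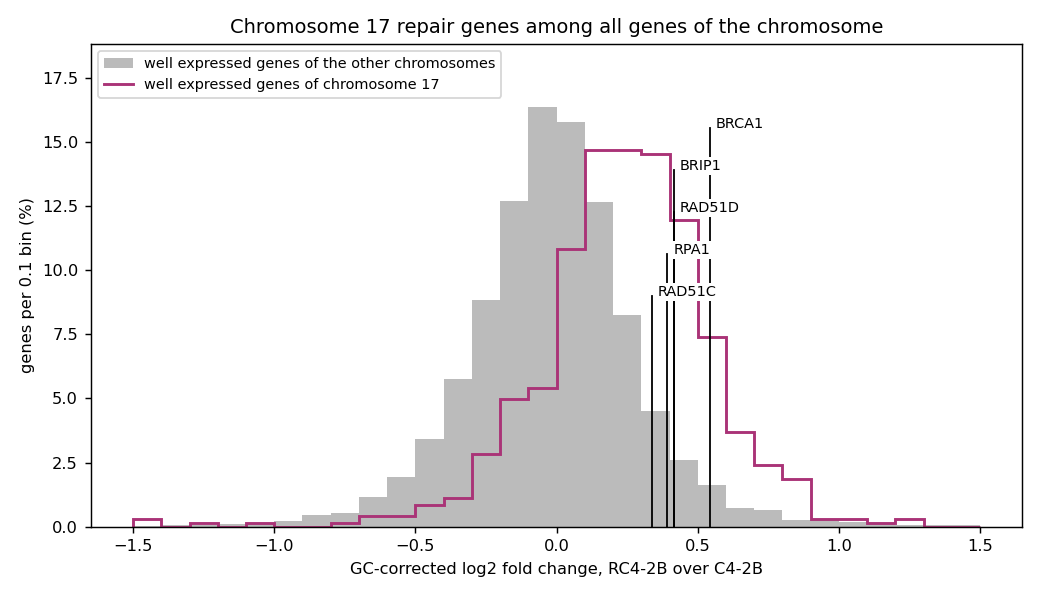
Distribution of the GC-corrected log2 fold change of RC4-2B over C4-2B, in bins of 0.1, for the well expressed genes of chromosome 17 (line) and of the other chromosomes (grey), as a percent of each set, with vertical lines for the 5 tested repair genes of chromosome 17. The chromosome 17 distribution sits to the right, with a median of 0.26 against -0.014, and the 5 genes lie between 0.34 (RAD51C) and 0.54 (BRCA1), inside it.

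Other repair and damage signalling genes were compared in the same way. Of 119 such genes found, 116 were tested, and edgeR's quasi-likelihood test called 0 of them higher and 0 lower with 6 libraries. DESeq2 called 3 higher and 0 lower, against 3.28% and 2.64% of all genes. Before adjustment edgeR gave 21 higher and 5 lower with a p-value under 0.05, against 13.1% and 9.80% of well expressed genes. RAD18, the ubiquitin ligase that starts translesion synthesis, had 42.2, 41.7 and 41.0 CPM in C4-2B and 56.0, 91.3 and 63.2 CPM in RC4-2B, which gave a log2 fold change of 0.75 (standard error 0.18, edgeR adjusted p = 0.0747). TOP3A on chromosome 17, a topoisomerase that resolves recombination intermediates, had a log2 fold change of 0.41 (edgeR adjusted p = 0.0831), and SPRTN, the protease for DNA-protein crosslinks, one of 0.52 (edgeR adjusted p = 0.0917). In the RC4-2B libraries these 3 genes were above every C4-2B library. The same held for 31 of the 116 tested genes of this list and for 18.7% of well expressed genes. On chromosome 17, where TOP3A lies, it held for 273 of 704 well expressed genes. In the lower direction, the 3 genes of smallest p-value were ALKBH2, a demethylase of damaged DNA (-0.46, edgeR adjusted p = 0.158), APEX1, the main abasic site nuclease (-0.28, edgeR adjusted p = 0.174) and MAD2L2, a shieldin and translesion subunit (-0.33, edgeR adjusted p = 0.195). Without RC4-2B replicate 2, 10 genes of this list were higher and 4 lower, against 6.50% and 6.02% of all genes.

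Many repair genes are transcribed in S phase, so markers of proliferation are given beside them. Of 20 such genes tested, 1 was higher in RC4-2B (TOP2A, on chromosome 17, log2 fold change 0.84, edgeR adjusted p = 0.018) and 0 were lower, and their median log2 fold change was 0.023. Summed over these genes, C4-2B libraries had 4705, 4623 and 4187 CPM and RC4-2B libraries had 4698, 4806 and 4736 CPM, so the lines overlapped. The part of proliferation in the values of the repair genes was not tested.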

How the data were processed

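RNA of C4-2B and RC4-2B cells was sequenced, and groups and replicates were taken from the sample labels. Per the submitters' processing notes, STAR and GRCh38 were used for mapping. The authors deposited raw counts, which are whole numbers of reads per gene, and FPKM values, in which each count is divided by the length of its gene and by a library total. Counts on genes made up 87.9% to 90.8% of that total in 5 libraries and 96.3% in RC4-2B replicate 2. The counting program, its use of strand and of reads with several matches, and the annotation release are not given in the sources used here, so overlapping genes and gene copies carry that uncertainty. This also holds for repair genes whose overlap is not named above, such as NBN with DECR1 (3127 counts against 8166 for NBN). Another is RAD52 with AC004803.1 on the same strand (361 counts against 1147 for RAD52).

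From the deposited counts, the cell lines were compared with edgeR 4.0.16 in R 4.3.3 (TMM scaling, filterByExpr with a minimum of 10 counts, glmQLFit and glmQLFTest without robust estimation), fitted on all genes, with Benjamini-Hochberg adjustment over the 15054 tested genes and a threshold of 0.05. The study's methods name DESeq2, which was run as an alternative (version 1.42.0). Standard errors were obtained from the fold change and the F statistic. Well expressed genes had an average log2 CPM of at least 2. GC content came from the longest GENCODE release 44 transcript and was known for 99.6% of tested genes, and its trend was fitted by lowess with a span of 0.2. FPKM values were used for levels between genes and, as log2(FPKM + 1) and log2(FPKM + 0.1), in limma 3.58.1 for genes of at least 1 FPKM in at least 3 libraries. The scripts were tested on simulated data.

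The members and lists were chosen with earlier results of these data known, and they are described by counts and medians beside all genes, with no test of the list. Library values and statistics are given for the chromosome 17 members, for the 5 smallest p-values in each direction, for SLFN11, PARP1, PARP2, TDP1, TDP2, ATM, ATR, CHEK1 and CHEK2, and for the 3 smallest p-values in each direction of the wider list. BRCA2, PRKDC, XRCC2, XRCC4, LIG4, XRCC5, FANCD2 and RBBP8 were added after their values were seen. Same-numbered libraries of the lines deviated from their group means with correlations of 0.32, 0.18 and -0.069, so the numbers were not taken as pairs. RefSeq promoters were matched by symbol for 35 of the 39 members, and where a gene had several starts the entry at the MANE transcript start was used. Some marker genes are not reported here.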

Additional observations from a re-analysis of the deposited data

How the results depend on the processing

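The count of higher repair genes, 0 with 6 libraries, was 6 with DESeq2, 5 without a filter on low counts, 5 with the GC correction, 4 with the GC correction and the replicate block, and 8 with the GC correction once RC4-2B replicate 2 was also omitted, a setting chosen after seeing the data. It ranged from 0 to 9 when each library was left out, reaching 9 when RC4-2B replicate 2 was omitted and 3 when replicate 1 was. It stayed 0 with the replicate number as a block, with other scalings (RLE, upper-quartile), with a mean of at least 10 counts and with limma on FPKM. Of all 15054 tested genes, the block called 55 higher and 74 lower, RLE scaling 155 and 146, and upper-quartile scaling 178 and 139. A mean of at least 10 counts gave 159 higher and 131 lower of 14935. Of 11987 genes, limma called 46 higher and 58 lower with FPKM + 1, and 39 and 47 with FPKM + 0.1. The count of lower repair genes was 0 throughout. For the wider list, DESeq2 called 3 genes higher and 0 lower, against 3.28% and 2.64% of all genes. Without a filter, 2 were higher and 1 lower, against 2.07% and 2.22%. The GC correction gave 4 and 1, against 4.39% and 3.27%, and with the block 3 and 2, against 4.29% and 3.75%. With the GC correction and RC4-2B replicate 2 omitted, 9 were higher and 3 lower, against 6.81% and 6.65%. When a library was left out, 0 to 10 were higher and 0 to 4 lower. Omitting RC4-2B replicate 2 gave 10 and 4, against 6.50% and 6.02%. Omitting RC4-2B replicate 1 gave 1 and 0, against 1.63% and 1.44%. The median log2 fold change of the repair genes, 0.16, was 0.047 with the GC correction and without RC4-2B replicate 2 and 0.11 to 0.22 when a library was left out, and that of the chromosome 17 members 0.45 to 0.54. Of the 38 tested genes, 10 turned under some alternative. With the GC correction, the GC correction with the block, and the GC correction without RC4-2B replicate 2, BARD1 was at -0.13, -0.13 and -0.14, NBN at -0.056, -0.061 and -0.085, FANCD2 at -0.037, -0.039 and -0.013, and CHEK1 at -0.080, -0.080 and -0.053. MRE11 was at -0.037 and -0.039 and CHEK2 at -0.0078 and -0.0099 with the first pair of these, and XRCC6 at -0.071 with the last. When a library was left out, BARD1 ranged from -0.062 to 0.21, NBN from -0.0043 to 0.33 and XRCC6 from -0.060 to 0.14, each lowest without RC4-2B replicate 2. RAD50 ranged from -0.16 to 0.060, RAD52 from -0.12 to 0.039, CHEK2 from -0.064 (without RC4-2B replicate 1) to 0.057, and XPC from -0.015 (without RC4-2B replicate 1) to 0.15. The cause of these shifts was not tested. Over the 38 genes and these alternatives, 28 values turned, 40 came past the threshold and 576 kept their direction and their side of it. The replicate block is a check by number only, since the numbers did not pair the libraries. At 15707134 counts or more per library, SLFN11 had too few counts to be tested.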

Other observations

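Among the wider repair genes, RBBP8 on chromosome 18, the nuclease cofactor that starts end resection, was chosen after its values were seen. It had 51.8, 56.4 and 50.4 CPM in C4-2B and 32.8, 53.2 and 40.4 CPM in RC4-2B, so RC4-2B replicate 2 overlapped C4-2B and the other RC4-2B libraries did not. Its log2 fold change was -0.33 with 6 libraries (edgeR adjusted p = 0.301), -0.52 after the GC correction (edgeR adjusted p = 0.0181) and -0.53 without RC4-2B replicate 2 (edgeR adjusted p = 0.00498). Without that library, 10 genes of the wider list were higher in RC4-2B and 4 lower, against 6.50% and 6.02% of all genes. The higher genes were CLSPN, EME1, ETAA1, EXO1, MLH3, POLQ, RAD18, REV3L, SPRTN and TOP3A. The lower genes were ALKBH2, APEX1, PAXX and RBBP8.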
